A study of Mus musculus with 4 samples.

Results

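The 10 genes described here mark the cells that wrap blood vessels, and they were chosen by name as rows of a deposited table of 32246 genes. Each of the 10 symbols occurred in 1 row, and all 10 passed the filter on low values. Of these, 6 are markers of pericytes (Pdgfrb, Rgs5, Abcc9, Vtn, Higd1b and Notch3) and 4 are contractile genes of vascular smooth muscle (Acta2, Tagln, Myh11 and Cnn1). Mononuclear cells had been separated on a Percoll gradient from spinal cords of C57BL/6 mice in which experimental autoimmune encephalomyelitis (EAE) had been induced. EAE is an immune attack on myelin that serves as a model of multiple sclerosis. Immunized mice were given a scramble micropeptide (Scr) or microPEP155 (P155), a micropeptide of the Mir155hg transcript, on alternate days from day 8, and 2 poly(A) RNA libraries numbered 4 and 5 were made for each group. The mice of both groups carried EAE, and no group without the disease was analysed here. The labels give neither the age of the mice nor whether a library came from 1 animal or a pool, so p-values measure only the spread between these libraries, which may be technical.

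Pericytes sit on the outside of capillaries, inside the basement membrane that they share with the endothelium, and in the brain and spinal cord they help to keep the blood-brain barrier closed. Smooth muscle cells form rings around arterioles and arteries and set their diameter through actin and myosin. Pericytes are recruited by platelet-derived growth factor B from endothelial cells acting on PDGFRB. Notch ligands on the endothelium act on NOTCH3 of mural cells, and the contractile genes are known targets of serum response factor (SRF) with its partner myocardin. In neuroinflammation the vessel wall is where leukocytes enter the tissue.

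Transcripts of the marker genes of both cell types were present in all 4 libraries, although the labels call the samples mononuclear cells. Levels are given as log2(normalized reads + 1), the scale of the deposited table. No member was at 0 in any library, and the reads recovered for a member ranged from 53 to 12996. The 10 genes together took 581 RPM (reads scaled to each library's total) in Scr 4, 554 in Scr 5, 581 in P155 4 and 486 in P155 5. Because these were bulk samples, fewer mural cells and less RNA per cell cannot be told apart. The libraries held between 30777553 and 64702948 reads assigned to genes, with the lowest depth in P155 5. Neural markers were far more abundant than these genes, with 6576 to 10079 RPM for 14 neuron markers. Markers of meningeal and perivascular fibroblasts, 14 genes, took 2372 to 2844 RPM. The part of fibroblasts or other cells in the values of the 10 genes was not tested.

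None of the 10 genes passed the test between P155 and Scr. In the limma fit across 27079 genes, 0 of the 10 had an adjusted p under 0.05, the same as for all genes, of which 0% passed. At an unadjusted p under 0.05 there were also 0 members, against 3.18% of all genes lower and 1.17% higher in P155, and limma-voom on the recovered reads called 0 members after adjustment. The difference was negative for 8 of the 10 genes, against 53.4% of all genes tested, and positive for Acta2 and Myh11. Its median over the 10 was -0.10 on the log2 scale, against -0.03 over all genes tested. Without P155 5 only 5 of the 10 were negative and the median was 0.05. In 3 members, Pdgfrb, Higd1b and Cnn1, the groups did not overlap and P155 was the lower, as in 19.6% of all genes. In 0 members was P155 the higher without overlap, against 15.2% of all genes. The authors' deposited table, which calls 0.53% of its genes at an FDR under 0.05, also calls 0 of the 10, with FDR values from 0.916 for Pdgfrb to 0.998 for Vtn.

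**Figure D1:**
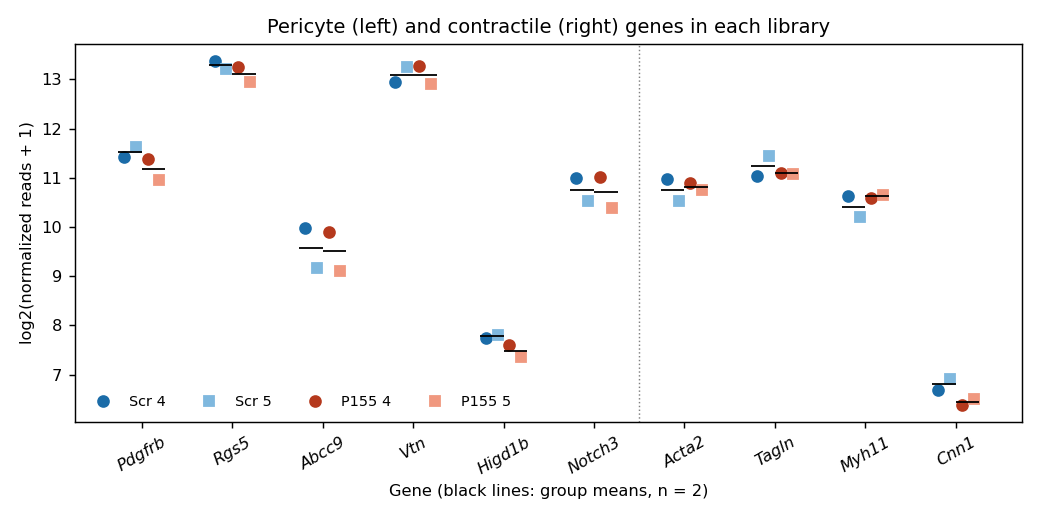
Level of each of the 10 genes in each library, as log2(normalized reads + 1). Circles are libraries numbered 4, squares those numbered 5, blue is Scr, red is P155 and black lines are group means of n = 2. Levels run from 6.39 for Cnn1 to 13.37 for Rgs5, and the groups are apart for Pdgfrb, Higd1b and Cnn1 alone.

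Among the receptors and signalling genes of the pericyte set, only Pdgfrb had groups that did not overlap. Pdgfrb, the receptor tyrosine kinase for PDGF-B (ENSMUSG00000024620, chromosome 18, 61045150 to 61085061, plus strand of mm10), was measured at 11.43 in Scr 4, 11.63 in Scr 5, 11.38 in P155 4 and 10.96 in P155 5. P155 5 was the low library, and P155 4 lay 0.05 below Scr 4. The group means were 11.53 ± 0.14 and 11.17 ± 0.29 (SD, n = 2), a difference of -0.36 (SE 0.21, limma adjusted p = 0.861), with a 95% interval from -0.91 to 0.19. That interval runs from 1.88-fold lower to 1.14-fold higher in P155.

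Notch3, the Notch receptor of mural cells whose human gene is mutated in the small vessel disease CADASIL (ENSMUSG00000038146, chromosome 17, 32120820 to 32166852, minus strand), was at 10.99 in Scr 4, 10.53 in Scr 5, 11.01 in P155 4 and 10.39 in P155 5. The libraries numbered 4 were high and those numbered 5 low in both groups. The difference between groups was -0.05 (SE 0.30, limma adjusted p = 0.985). An antisense gene, Gm17276, shares 488 bases, or 6.03%, of the Notch3 exons and had 65 to 202 reads per library, against 797 to 2488 for Notch3.

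Rgs5, which switches off G protein signalling by speeding the hydrolysis of GTP on alpha subunits (ENSMUSG00000026678, chromosome 1, 169655501 to 169695813, plus strand), was at 13.37 in Scr 4, 13.22 in Scr 5, 13.25 in P155 4 and 12.95 in P155 5. Its groups overlapped, with P155 4 just above Scr 5. The difference was -0.19 (SE 0.18, limma adjusted p = 0.863) with a 95% interval from -0.66 to 0.27, the narrowest of the 10 genes.

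Abcc9, the sulfonylurea receptor subunit of the vascular ATP-sensitive potassium channel (ENSMUSG00000030249, chromosome 6, 142587862 to 142702315, minus strand), varied most between libraries. It was at 9.98 in Scr 4, 9.16 in Scr 5, 9.90 in P155 4 and 9.12 in P155 5, from 1235, 678, 1129 and 328 reads. As for Notch3, the libraries grouped by number and not by treatment, with a range of 0.86 over the 4 libraries and a difference between groups of -0.06 (SE 0.41). Both libraries numbered 4 lay above both numbered 5 in 4 of the 10 members, Rgs5, Abcc9, Notch3 and Acta2, and in 22.3% of all genes tested.

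The secreted and mitochondrial members had little in common in their order of libraries. Vtn, which encodes the adhesive glycoprotein vitronectin (ENSMUSG00000017344, chromosome 11, 78499091 to 78502324, plus strand), was at 12.95 in Scr 4, 13.25 in Scr 5, 13.28 in P155 4 and 12.90 in P155 5. High and low libraries occurred in each group, and the difference was -0.01 with a 95% interval from -0.57 to 0.55. Within number 4 the P155 library was 0.33 above Scr and within number 5 it was 0.35 below. Higd1b, a small protein of the HIG1 domain family (ENSMUSG00000020928, chromosome 11, 102835849 to 102838040, plus strand), was at 7.75 and 7.81 in Scr 4 and 5 and at 7.60 and 7.36 in P155 4 and 5. Here the groups did not overlap, yet the difference of -0.30 (SE 0.27, limma adjusted p = 0.861) was close to its standard error. The value in P155 5 came from 97 reads, whose exact Poisson 95% interval is 78.7 to 118, covering counting error only.

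All 6 pericyte genes had their lowest value in P155 5, as did 28.4% of all genes tested. Their mean, each gene taken relative to its own mean over the libraries, was 0.15 in Scr 4, 0.01 in Scr 5, 0.15 in P155 4 and -0.31 in P155 5. Summed, they took 378 RPM in P155 5 against 453 to 475 in the other libraries. Endothelial markers showed the same low library, with 494 RPM in P155 5 against 593 to 682 elsewhere and none of the 15 markers at 0. P155 5 was the lowest library for 9 of these 15, and also for 9 of 10 pan-leukocyte and 10 of 10 T cell markers, whose sum was 27.7 RPM in P155 5 against 42.9 to 83.8 elsewhere. Other lists did not share this. P155 5 was lowest for 2 of 14 meningeal and perivascular fibroblast, 1 of 10 platelet, 0 of 9 erythroid and 0 of 10 neutrophil markers. Neutrophil markers had their lowest sum in P155 4, at 113 RPM against 559 in P155 5. P155 5 was also the library with the fewest reads, and the part of depth or of the cell makeup of the library in these values was not tested.

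**Figure D2:**
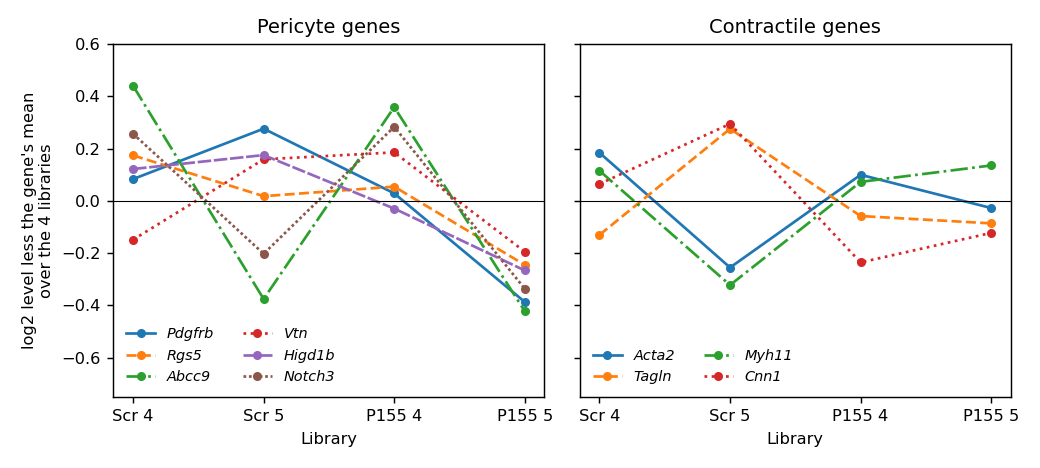
Level of each gene less its own mean over the 4 libraries, on the log2 scale, for the 6 pericyte genes (left) and the 4 contractile genes (right). Lines only join the points of 1 gene. The pericyte genes meet at low values in P155 5, between -0.19 and -0.42, while in Scr 5 Acta2 and Myh11 lie low and Tagln and Cnn1 high.

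The contractile genes had nearly equal sums in all libraries but split into opposite pairs in Scr 5. Summed, they took 111 RPM in Scr 4, 102 in Scr 5, 106 in P155 4 and 108 in P155 5. Extreme values in Scr 5 were common: it was the highest library for 34.7% and the lowest for 31.7% of all genes tested. Acta2, smooth muscle alpha-actin (ENSMUSG00000035783, chromosome 19, 34241090 to 34255590, minus strand), was at 10.97 in Scr 4, 10.53 in Scr 5, 10.89 in P155 4 and 10.76 in P155 5. The difference was 0.07 (SE 0.21, limma adjusted p = 0.963), with both P155 libraries between the Scr values. Myh11, the smooth muscle myosin heavy chain (ENSMUSG00000018830, chromosome 16, 14194535 to 14291372, minus strand), had the same low library, at 10.64 in Scr 4, 10.20 in Scr 5, 10.59 in P155 4 and 10.66 in P155 5. Its difference of 0.21 (SE 0.21, limma adjusted p = 0.870) was the highest of the 10 and became -0.01 without Scr 5.

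Tagln and Cnn1 had their highest value in Scr 5. Tagln, the actin-binding protein transgelin (ENSMUSG00000032085, chromosome 9, 45929619 to 45936058, minus strand), was at 11.03 in Scr 4, 11.44 in Scr 5, 11.11 in P155 4 and 11.08 in P155 5. Outside Scr 5 its values stayed within 0.07, and the difference between groups was -0.14 (SE 0.20, limma adjusted p = 0.897). Cnn1, calponin 1, which binds actin and restrains myosin (ENSMUSG00000001349, chromosome 9, 22099216 to 22109630, plus strand), was at 6.69 in Scr 4, 6.92 in Scr 5, 6.39 in P155 4 and 6.50 in P155 5. Each P155 value was below each Scr value, with a difference of -0.36 (SE 0.33, limma adjusted p = 0.864) and a 95% interval from -1.24 to 0.52. Only 53 reads lay behind the value in P155 5, with an exact Poisson 95% interval of 39.7 to 69.3. Within a library, Acta2 less Tagln was -0.06 in Scr 4, -0.22 in P155 4 and -0.32 in P155 5, but -0.91 in Scr 5. Acta2 less Myh11 moved less, from 0.10 to 0.34 over the 4 libraries.

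In Scr 5 the values went with the length of the transcripts for most members, but not for Acta2. Acta2 and Tagln, with 2196 and 1988 bases of exons, went opposite ways there. Lengths are those of the exons of all annotated transcripts merged (exon union). The 3 members with more than 7 kb of exons, Abcc9, Notch3 and Myh11, all stood below their own mean in Scr 5, whereas of the 5 with less than 3 kb, 4 stood above it, with Acta2 as the exception. Pdgfrb and Rgs5, between these lengths, also stood above their own means in Scr 5. Over 3586 genes under 3 kb with a mean log2 level of at least 8, the median value in Scr 5 was 0.16 above each gene's own mean, and over 3387 genes of 7 kb or more it was 0.14 below. The medians of the shorter and longer genes were -0.07 and 0.08 in Scr 4, -0.07 and 0.10 in P155 4, and -0.010 and -0.006 in P155 5. The length bins were chosen after the members' values were seen, and the part of length in the members' values was not tested. Overlap is a second limit for Tagln: the antisense gene Gm48529 (deposited symbol AC122273.2) shares 1241 bases, or 62.4%, of the Tagln exons, whether counting used strand is not stated, and that gene had 251 reads in Scr 5 against 105, 112 and 26 in Scr 4, P155 4 and P155 5. The protein-coding gene Pcsk7, also on the opposite strand, shares 108 bases, or 5.43%, of the Tagln exons. Pcsk7 had 1201 reads in Scr 4, 783 in Scr 5, 1542 in P155 4 and 427 in P155 5. Tagln itself had 3291 reads in Scr 5.

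Promoter sequence is shown for the pairs of genes with opposite or like order of libraries. RefSeq promoter windows (GRCm38.p6, the mm10 build, from 250 bases before to 50 after the start) were found for 6 of the 10 genes by symbol. The CArG box, the site bound by SRF, was searched by its 10-base consensus and also with up to 1 G or C allowed in its A/T-rich centre. It reads the same on both strands, and 1.63% of 32851 promoter windows held the consensus and 9.98% the relaxed form. Among the 6 members with a window, Acta2 held 2 relaxed matches and no consensus match, and Cnn1, Rgs5, Vtn, Abcc9 and Notch3 held no match of either form. The core of the site bound by RBPJ, the DNA-binding partner of Notch, was searched as TGGGAA on both strands and occurred in 25.6% of all windows. It was found 1 time in Abcc9 and in Acta2, 3 times in Vtn and not in Notch3, Rgs5 or Cnn1, and the Acta2 match overlaps the second relaxed CArG match. A match is a description of letters, not a bound site.

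The 2 Acta2 elements are shown with 10 bases on each side, on the minus strand at chr19:34255438-34255467 and chr19:34255388-34255417, with the relaxed CArG match in capitals. For Cnn1 (plus strand, chr9:22099003-22099215), Notch3 (minus strand, chr17:32166891-32167140) and Abcc9 (minus strand, chr6:142702316-142702524) the bases upstream of any annotated exon are shown, with the RBPJ core in capitals in Abcc9 and no capitals where neither motif was found.
Acta2 upstream element: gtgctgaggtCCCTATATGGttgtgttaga
Acta2 downstream element: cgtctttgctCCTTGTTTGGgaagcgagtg
Cnn1: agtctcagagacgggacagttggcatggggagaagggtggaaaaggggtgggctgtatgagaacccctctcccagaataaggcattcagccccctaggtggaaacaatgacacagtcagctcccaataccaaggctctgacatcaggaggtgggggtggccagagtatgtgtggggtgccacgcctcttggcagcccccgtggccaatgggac
Notch3: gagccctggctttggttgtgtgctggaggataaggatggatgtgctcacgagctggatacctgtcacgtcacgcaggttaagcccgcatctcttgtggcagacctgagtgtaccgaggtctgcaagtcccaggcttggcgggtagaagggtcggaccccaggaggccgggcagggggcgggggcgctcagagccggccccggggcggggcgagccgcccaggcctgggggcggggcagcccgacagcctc
Abcc9: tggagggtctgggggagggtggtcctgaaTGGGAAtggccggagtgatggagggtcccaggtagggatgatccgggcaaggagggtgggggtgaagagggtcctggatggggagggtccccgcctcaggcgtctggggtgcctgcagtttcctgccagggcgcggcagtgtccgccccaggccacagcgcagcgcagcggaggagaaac

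**Figure D3:**
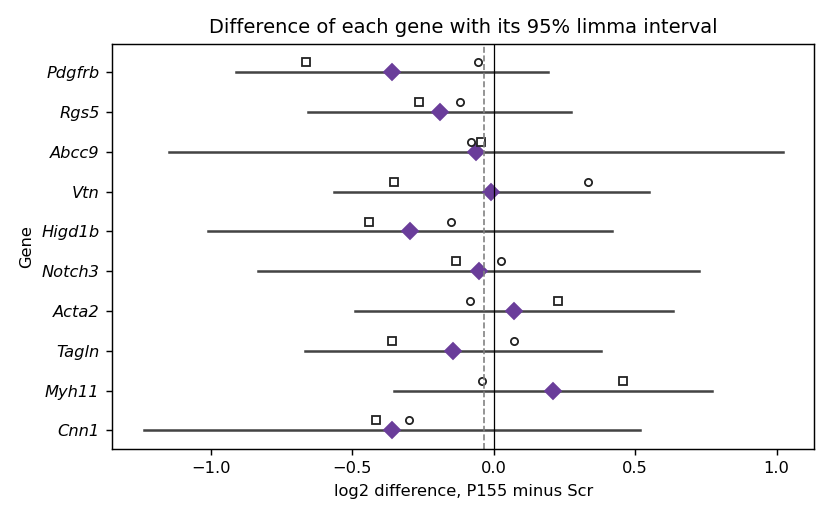
Difference between P155 and Scr for each gene on the log2(normalized reads + 1) scale, with its 95% interval from limma (bars). Diamonds are group differences, open circles and squares the differences within numbers 4 and 5, and the dashed line is the median of all genes, -0.03. All 10 intervals include 0, and the widest, that of Abcc9, runs from -1.15 to 1.02.

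Per kb of exon, the 10 genes spanned a wide range of levels with a stable order. The means over the 4 libraries were 4341 normalized reads per kb for Vtn, 2079 for Rgs5, 1161 for Tagln, 809 for Acta2, 483 for Pdgfrb, 234 for Higd1b, 214 for Notch3, 195 for Myh11, 92.1 for Abcc9 and 36.0 for Cnn1. Neighbours in this order had ranges over the libraries that did not overlap, except that Higd1b overlapped Notch3 and Notch3 overlapped Myh11. Tagln, for example, ranged from 1054 to 1397 per kb and Acta2 from 673 to 913. Compared with 14647 tested genes whose mean log2 level lay between those of Cnn1 and Rgs5, the members' range over the 4 libraries had a median of 0.45 against 0.53.

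Relatives from the same families placed the members among genes of other cells. Acta2 stood far below the cytoplasmic actins, with 809 normalized reads per kb against 19260 for Actb and 13662 for Actg1, and Tagln at 1161 was below Tagln3, a neuronal relative, at 13734 and close to Tagln2 at 1389. Cnn1 at 36.0 per kb was below Cnn2 at 759 and Cnn3 at 1781, and Myh11 at 195 was below the non-muscle myosin genes Myh9 at 684 and Myh10 at 1158. Notch3 at 214 per kb lay near Notch1 at 204 and under Notch2 at 327, and Pdgfrb at 483 exceeded Pdgfra, a marker of oligodendrocyte precursors and fibroblasts, at 311. Acta1, the skeletal muscle actin and a close copy of Acta2, was at 7.69 in Scr 4, 9.13 in Scr 5, 6.26 in P155 4 and 10.94 in P155 5 on the log2 scale, an order that Acta2 did not share. Reads from the nearly identical coding parts of the actin genes cannot be assigned with certainty.

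**Figure D4:**
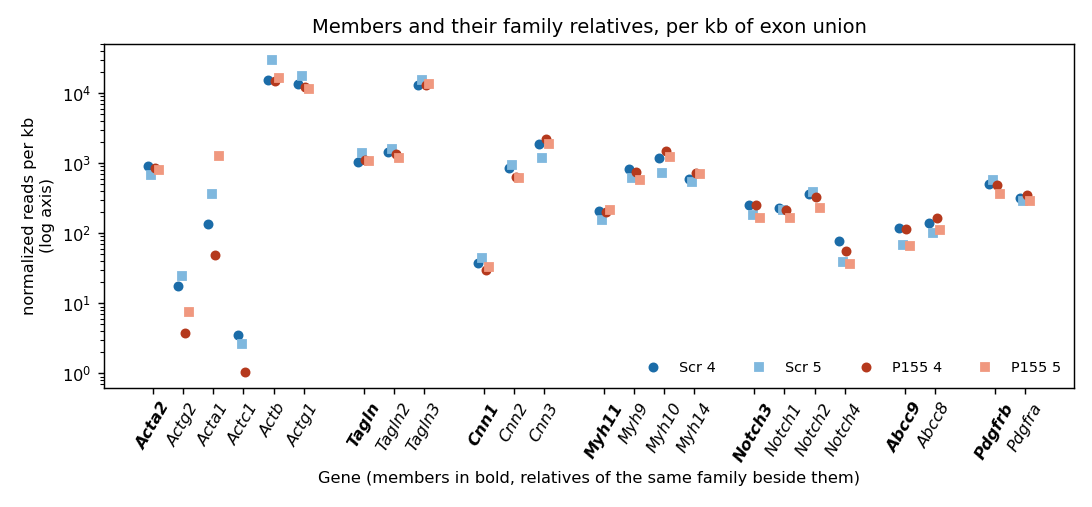
Normalized reads per kb of exon union, on a log axis, for 7 members (bold) and their family relatives in each library. Acta2, Tagln, Cnn1 and Myh11 lie below their cytoplasmic or neural relatives, Acta1 spreads widely, and Actc1 in P155 5, at 0, is not drawn.

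Among 18 other pericyte genes, 0 passed adjustment, and 13 were lower and 5 higher in P155, where 53.4% of all genes tested were lower. The median difference of the 18 was -0.19 against -0.03 for all genes tested. In 7 of the 18 the groups did not overlap with P155 lower, against 19.6% of all genes, and in 0 with P155 higher, against 15.2%. The 3 with the smallest p were Foxs1, a forkhead factor of mural cells, Tbx18, a T-box factor of mural cells, and Anpep, a membrane peptidase also made by myeloid cells. Foxs1 was at 6.85 in Scr 4, 7.50 in Scr 5, 5.85 in P155 4 and 5.87 in P155 5, a difference of -1.32 (SE 0.39, limma adjusted p = 0.861). Tbx18 was at 7.60, 8.48, 7.37 and 6.98 in the same order, and Anpep at 10.22, 11.10, 10.27 and 9.54. In all 3 the highest value was that of Scr 5, and in Anpep the groups overlapped. Kcnj8, the pore subunit that joins the Abcc9 product in the vascular channel, was at 8.75, 8.83, 8.71 and 8.34, and did not share the high values of Abcc9 in the libraries numbered 4.

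Other smooth muscle genes were divided in direction. Of 22, 12 were lower and 10 higher, 0 passed adjustment, and the median difference was -0.06. Actg2, the enteric smooth muscle actin, had the smallest p at low levels, with 4.85 in Scr 4, 5.28 in Scr 5, 2.79 in P155 4 and 3.68 in P155 5 (difference -1.83, SE 0.61, limma adjusted p = 0.861). Crip1, a small LIM protein also made by leukocytes, and Mustn1, a muscle nuclear protein, came next, at differences of -0.61 and -0.54, and both were highest in Scr 5. Myl9, the regulatory light chain of smooth muscle myosin, was at 11.03, 10.82, 10.92 and 11.06, lowest in Scr 5 like Acta2 and Myh11 and unlike Tagln and Cnn1. Among genes also made by striated muscle, 3 stood high in P155 5, with Des at 8.96 against 7.86 to 8.34 elsewhere, Pln at 8.29 against 7.18 to 7.67 and Tpm2 at 10.67 against 9.80 to 9.91. Others were lowest there, with Casq2, a calcium-binding protein of the sarcoplasmic reticulum, at 7.03 against 7.28 to 7.79 and Mustn1 at 7.75 against 8.27 to 8.83. The 10 skeletal muscle markers had a sum of 181 RPM in P155 5, 47.8 in Scr 5, 18.8 in Scr 4 and 8.47 in P155 4, where 1 of them, Myh1, was at 0. Their part in the smooth muscle values was not tested.

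The signals that act on mural cells gave no call. Of 5 PDGF ligands and receptors besides Pdgfrb, 3 were lower and 2 higher, with a median of -0.00166. Pdgfb, the ligand of the receptor encoded by Pdgfrb, was at 10.39 in Scr 4, 10.94 in Scr 5, 10.11 in P155 4 and 9.66 in P155 5, so that the groups did not overlap (difference -0.78, SE 0.28, limma adjusted p = 0.861). Ligand and receptor shared their highest library, Scr 5, and their lowest, P155 5, an order that is not particular to them. Scr 5 was the highest library for 34.7% of all genes tested and P155 5 the lowest for 28.4%. Among 10 pan-leukocyte markers, 9 were highest in Scr 5 and 9 lowest in P155 5. Pdgfd was at 7.70 in Scr 5 and between 9.29 and 9.60 in the other libraries, and Pdgfra differed by 0.08.

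Of 14 Notch ligands, receptors and targets besides Notch3, 12 were lower and 2 higher, where 53.4% of all genes tested were lower. The median of the 14 was -0.25, with 0 past adjustment. The groups did not overlap in 10 of them, 8 lower and 2 higher in P155, where 19.6% and 15.2% of all genes did so. Hes1, a target repressor, was at 8.55, 9.11, 7.79 and 8.36 in Scr 4, Scr 5, P155 4 and P155 5, a difference of -0.75. Dll4, an endothelial ligand, differed by -0.70 and the receptor gene Notch2 by -0.42, each with limma adjusted p = 0.861. Heyl, a Notch target of mural cells, was one of the 2 higher genes, at 9.42, 9.13, 9.52 and 9.56, and Hey1 and Hey2 differed by -0.09 and -0.16.

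Of 15 genes of SRF, myocardin and TGF-beta signalling in the table, 13 were lower and 2 higher, where 53.4% of all genes tested were lower. The median of the 15 was -0.19, with 0 past adjustment. Srf itself was at 10.59, 10.57, 10.61 and 10.54, a difference of -0.01, and its partner Myocd was close to the floor, between 1.82 and 4.35. Acvrl1, an endothelial receptor of the TGF-beta family, was at 10.63, 10.71, 9.58 and 10.18 (difference -0.78, SE 0.26, limma adjusted p = 0.861). Tgfb1, a ligand also made by leukocytes, differed by -0.67 and its receptor gene Tgfbr1 by -0.36. Of 7 relatives of Abcc9, Rgs5 and Higd1b, 4 were lower and 3 higher. Kcnj11, the pore subunit of the neuronal channel, had the smallest p among them, at 10.28, 10.01, 10.77 and 10.47 (difference 0.47, SE 0.21), followed by Rgs4 at -0.26 and Kcnj8 at -0.27. Of 12 relatives of the contractile genes, 8 were lower and 4 higher, and those with the smallest p were Cnn2, made by leukocytes and other non-muscle cells, with a difference of -0.52, Actg2 at -1.83 and the cardiac actin gene Actc1, at -1.85 and near the floor.

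Pan-leukocyte markers spread over the libraries much more widely than the mural genes did. The 10 pan-leukocyte markers were lower in P155 in 10 of 10, with a median difference of -0.83, and their sum was 867 RPM in Scr 4, 1199 in Scr 5, 723 in P155 4 and 504 in P155 5. For the mural members the corresponding values were 8 of 10 and -0.10. No test of this contrast between lists was made. The medians of the endothelial markers, -0.23 with 12 of 15 lower, and of the fibroblast markers, -0.22 with 11 of 14 lower, lay between these medians. Of all genes tested, 53.4% were lower. No pan-leukocyte, endothelial or fibroblast marker was at 0 in any library. The sums of the neutrophil, erythroid and platelet markers had another order, highest in Scr 4 and lowest in P155 4. The share of leukocyte RNA differed between libraries in which the mural genes were compared, and its part in the values of genes that leukocytes also express, such as Anpep, Crip1, Tgfb1 and Cnn2, was not tested.

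**Figure D5:**
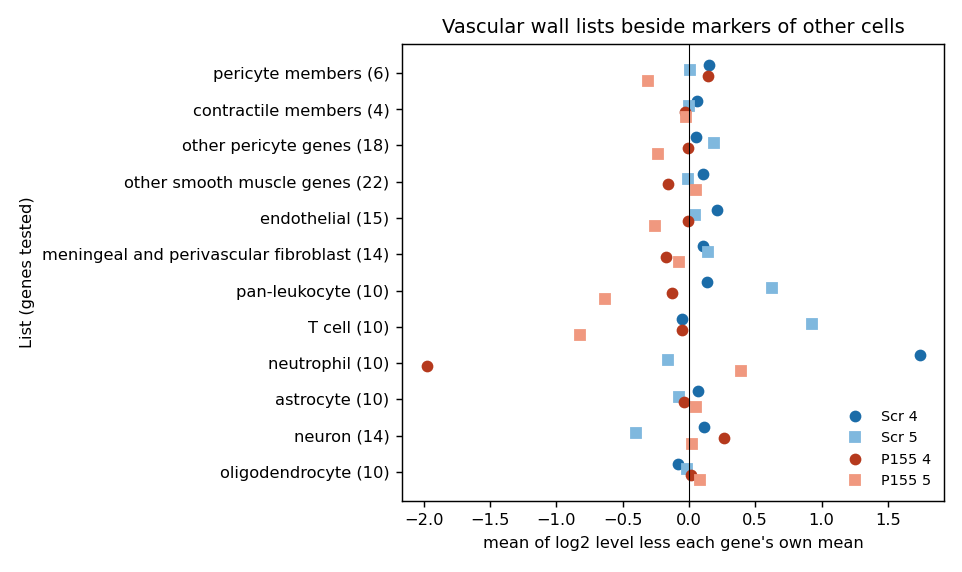
Mean over each list of the log2 level less each gene's own mean over the 4 libraries, with the number of genes tested in brackets and symbols as in the plot of levels by library. The mean of the contractile members stays within 0.06 of 0 in each library, although in Scr 5 it averages members of opposite sign. The pan-leukocyte mean runs from -0.64 in P155 5 to 0.63 in Scr 5.

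Genes nearest to the mean profile of each set of members were sought by the Euclidean distance between centred log2 values over the 4 libraries, among 13313 genes with a mean level of at least 8. For the mean profile of the 6 pericyte genes these were Pigo, Fgl2, Psmf1, Wbp1 and Polr3b, at distances of 0.03 to 0.05, while the members themselves lay 0.11 (Rgs5) to 0.54 (Abcc9) from it. The mean profile of the contractile genes was almost flat, from -0.03 to 0.06. Its nearest genes, Tm9sf3, Prkcq, Gas7, Lats1 and Cpeb2, were flat genes at distances of about 0.02, against 0.31 to 0.38 for the 4 members.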

How the data were processed

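The authors' deposited table gives log2 values per gene and library, the authors' group means and log2 fold change, and a p-value and FDR of a comparison whose test it does not name. The submitters' processing notes list bcl2fastq, STAR 2.5.3a, DESeq2 and build mm10. No source used here names the read counter, the annotation or the use of strand. Once back on the linear scale with the 1 subtracted, 100% of values were whole multiples of a library's own step (relative tolerance 1e-06), which gave reads per gene. The 27079 genes that reached a normalized value of 1 in 2 or more libraries were fitted on log2(value + 1) by limma-trend (limma 3.58.1, R 4.3.3). Its p-values are two-sided and were adjusted by the Benjamini-Hochberg method across the 27079. Such fold changes understate those of low genes. DESeq2 and edgeR, the latter planned for raw counts, were not run. The fit was also run on simulated counts whose changes were larger than the members' differences. Its outcome is not given here, and it does not speak to differences as small as theirs. Positions and exon unions are from GENCODE M21 (mm10), which matched 32168 of 32246 identifiers.

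The members and lists were chosen with earlier results of these data known. Named genes are the 10 members, the 3 of each related list with the smallest unadjusted p, and the 5 genes nearest to each mean profile; others, such as Myl9, Srf, Heyl, Des and the family relatives, were chosen after their values were seen. No label says what the shared number marks, and the main fit was not blocked by it. Deviations of same-numbered libraries from their group means had a Pearson correlation of 0.07 over genes, which cannot show whether the libraries were paired.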

Additional observations from a re-analysis of the deposited data

How the results depend on the processing

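No member passed an adjusted p of 0.05, and 0 of all genes did, under any alternative run: the replicate block, each library left out (the group left with 1 library borrows its spread from the other group), library-size scaling, no filter, a stricter filter (a value of at least 10), a pseudocount of 0.1, a robust variance prior and limma-voom on recovered reads. The smallest adjusted p of a member was 0.746 with the replicate block and 0.411 without Scr 4. With a library left out, the count of members lower in P155 was 5 to 8 and their median difference -0.32 to 0.05. Signs of 8 differences turned when a single library was left out, and the cause was not tested. Leaving out each library gave -0.47 to 0.34 for Abcc9, -0.20 to 0.18 for Vtn, -0.36 to 0.26 for Notch3, -0.15 to 0.29 for Acta2, -0.35 to 0.058 for Tagln, -0.011 to 0.43 for Myh11, -0.040 to 1.74 for Pdgfd and -0.067 to 0.22 for Pdgfra. Library-size scaling turned Vtn to 0.0022. edgeR, planned for raw counts, was not run on log2 values. With 2 libraries per group the 95% intervals of the members reach down to between -0.35 (Myh11) and -1.24 (Cnn1) and up to between 0.19 (Pdgfrb) and 1.02 (Abcc9), and Cnn1 and Higd1b also rest on few reads in P155 5.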
